A study of Mus musculus with 90 samples.

Results

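The subject of these results was a set of 46 genes that encode subunits of the ATP-dependent chromatin remodelling complexes. The members were taken by gene symbol from the count table, and 46 of the 24422 genes in it were members. They fell into the SWI/SNF family with 17 genes, the ISWI family with 6, the CHD family with 6, the NuRD complex with 10, the INO80/SWR family with 5 and a further 2 enzymes of the SNF2 type. All 46 passed the filter on low values, which left 16511 genes for testing.

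Chromatin remodelling complexes use the energy of ATP to slide, evict or exchange nucleosomes. Each family is built around its own ATPase, and many subunits exist as alternative paralogs, so that the paralog in use defines the form of the complex. The mouse oocyte stores maternal transcripts of such genes. Most maternal RNA is cleared around the 2-cell (2c) stage, when transcription from the embryonic genome starts, and the embryo then supplies its own subunits. SMARCA4, also known as BRG1, is a maternal factor known to be required for genome activation in the mouse.

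Single metaphase II (MII) oocytes and single 2c and 8-cell (8c) embryos were profiled by an RNA-seq method that tags the 5' ends of transcripts, with synthetic spike-in RNA added to each library. The mice were of the CD-1 strain. Sexually mature knockout (KO) females that lacked Plag1, which encodes a zinc finger transcription factor, and wild-type (WT) females were superovulated with pregnant mare serum and human chorionic gonadotropin (hCG). Oocytes came from unmated females 21 to 23 h after hCG, and embryos came from matings with WT males and were cultured to 45 to 47 h (2c) or 71 to 73 h (8c) after fertilization. No group received any other treatment. Embryos of KO females, called matPlag1KO, were therefore heterozygous, lacking the maternal allele and carrying a paternal WT allele. The oocytes of KO females lacked Plag1, and cumulus cells had been removed from all oocytes and zygotes. The donor female of each oocyte or embryo was not given, so the p-values measure the spread between these libraries.

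After a filter on library quality 78 of 90 libraries were used: 16 WT and 14 KO oocytes, 11 WT and 11 matPlag1KO 2c embryos, and 15 WT and 11 matPlag1KO 8c embryos. The oocytes and embryos had been barcoded and amplified in 2 multiplexed libraries, libA and libB, each of which held all stages and both genotypes; here each oocyte or embryo is called a library and libA and libB are called pools. The total gene count was 222357 to 2502421 per oocyte, 92475 to 256529 per 2c embryo and 214053 to 696870 per 8c embryo, so a gene at a few CPM (counts per 1000000) was at or below a single count in many 2c embryos. Plag1 was detected in all 16 WT oocytes, and 3 of 14 KO oocytes held any count of it. At 2c, 1 WT embryo of 11 and 9 of 11 labelled matPlag1KO (median 35.7 CPM) held a count, against the direction of the name but with a paternal WT allele present, so Plag1 did not check the labels at 2c. The study reports the same direction from these data and attributes it to ectopic expression from the paternal allele in matPlag1KO embryos. Of 12 cumulus and granulosa markers, Ptx3 and Cd44 were at 0 in all groups, and the sum of the list did not exceed 47.3 CPM in any library. The summed level of 10 MII oocyte markers had a median of 6845 CPM in WT and 15576 CPM in KO oocytes, 4010 and 5158 CPM at 2c, and 288 and 332 CPM at 8c. The 9 listed 2-cell markers summed to 88.5 CPM or more in every 2c embryo and to 12.2 CPM or less in every other library. At 2c the stage markers also moved with the genotype. The 2-cell markers had a median sum of 224 CPM in WT (88.5 to 1153) and 521 CPM in embryos labelled matPlag1KO (252 to 722), with 6 of 9 detected in each. The 10 listed 8-cell markers had a median sum of 5061 CPM in WT (3327 to 7191) and 2679 CPM in those labelled matPlag1KO (1515 to 6592). The same list had medians of 6509 and 5567 CPM in WT and KO oocytes, and 8439 and 7561 CPM in WT and matPlag1KO embryos at 8c. It was therefore high in oocytes too and did not mark 8c alone.

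A group of libraries stood apart. Within WT oocytes, the 8 libraries of libA differed from the 8 of libB in 6.79% of all genes (1121 genes), against 0.751% between the pools in KO oocytes and at most 0.0182% in any embryo group. The members Chd2, Ruvbl2 and Baz1a were higher in the WT oocytes of libA, by 2.98 (SE 0.67), 2.31 (SE 0.57) and 1.19 (SE 0.34) on the log2 scale. The libA oocytes of this group were also the deeper ones, with a median of 742444 gene counts against 318785 in libB. Where leaving out these 8 libraries ended a call, turned its direction or moved a count by over 1.5 times, the value without them is given beside it; the KO oocytes and embryos of libA then stay in.

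The sequence around the annotated start of 4 members is shown, most of it upstream of that start. Smarca2, Ruvbl1 and Actl6a were called between the genotypes, and Smarca4 is part of the main change of subunit described below. Chd2, which was also called, is not shown. Each window runs from 250 bases before the annotated start of the gene over 300 bases in all, in the mm9 build, on the strand of the gene. Capitals mark matches to a PLAG1-like pattern, GGGGC followed by 6 to 8 bases of any kind and GGG, searched on both strands.
Smarca2, chr19:26679400-26679699, plus strand: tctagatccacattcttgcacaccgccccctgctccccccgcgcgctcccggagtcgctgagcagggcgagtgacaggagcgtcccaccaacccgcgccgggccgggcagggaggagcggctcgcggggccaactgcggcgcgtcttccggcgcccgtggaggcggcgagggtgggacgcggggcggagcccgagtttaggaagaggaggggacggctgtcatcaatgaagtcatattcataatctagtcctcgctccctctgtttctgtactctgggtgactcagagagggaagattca
Smarca4, chr9:21420363-21420662, plus strand: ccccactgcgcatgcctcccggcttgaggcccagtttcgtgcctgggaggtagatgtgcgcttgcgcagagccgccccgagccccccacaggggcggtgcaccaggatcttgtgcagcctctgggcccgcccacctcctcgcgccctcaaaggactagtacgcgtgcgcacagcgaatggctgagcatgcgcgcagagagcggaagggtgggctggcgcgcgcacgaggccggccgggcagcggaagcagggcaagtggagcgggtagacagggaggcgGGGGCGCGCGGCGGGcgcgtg
Ruvbl1, chr6:88415167-88415466, plus strand: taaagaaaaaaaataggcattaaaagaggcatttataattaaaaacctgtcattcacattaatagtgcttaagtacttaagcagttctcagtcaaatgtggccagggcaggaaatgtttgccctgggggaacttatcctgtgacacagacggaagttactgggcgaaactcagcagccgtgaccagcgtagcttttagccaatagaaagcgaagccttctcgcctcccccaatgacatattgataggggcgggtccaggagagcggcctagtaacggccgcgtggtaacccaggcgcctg
Actl6a, chr3:32607218-32607517, plus strand: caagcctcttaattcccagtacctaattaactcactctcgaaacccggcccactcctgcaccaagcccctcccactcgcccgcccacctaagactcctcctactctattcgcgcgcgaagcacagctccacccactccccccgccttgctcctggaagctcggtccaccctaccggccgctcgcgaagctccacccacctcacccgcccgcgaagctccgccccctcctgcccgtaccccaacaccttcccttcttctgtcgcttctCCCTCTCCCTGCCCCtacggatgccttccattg
The Smarca4 window held 1 match on the strand of the gene, the Actl6a window held 1 on the other strand, and the Smarca2 and Ruvbl1 windows held none. Among all members 8 of 46 windows held a match (17.4%), and among all 24323 windows of this length 4692 did (19.3%). The study scanned longer promoter windows for a database PLAG1 site and for its own de novo motif. The shares given here are of another pattern and cannot be set against its results. The member windows had a median GC content of 67.7%, and all windows one of 55.7%. The Ruvbl1 window, at 48.0% GC, was the least GC-rich of the 4 shown.

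The first comparison asked which remodeller subunits differed between the genotypes at each stage. Few members did. In MII oocytes 1 of 46 members passed an adjusted p of 0.05 (edgeR, with scaling by the trimmed mean of M values, TMM), where 0.781% of all genes passed. At 2c 2 of 46 passed, against 4.92% of all genes, and at 8c 1 of 46 passed, against 1.74% of all genes. The 4 genes were Chd2, lower in KO oocytes, Ruvbl1 and Actl6a, lower in 2c embryos labelled matPlag1KO, and Smarca2, higher in 8c matPlag1KO embryos. The part of the lower 8-cell and higher 2-cell marker sums in the 2c differences was not tested. The members had a median log2 fold change of -0.09 in oocytes, -0.18 at 2c and -0.09 at 8c, where the median over all genes was 0.00, 0.12 and 0.00.

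**Figure D1:**
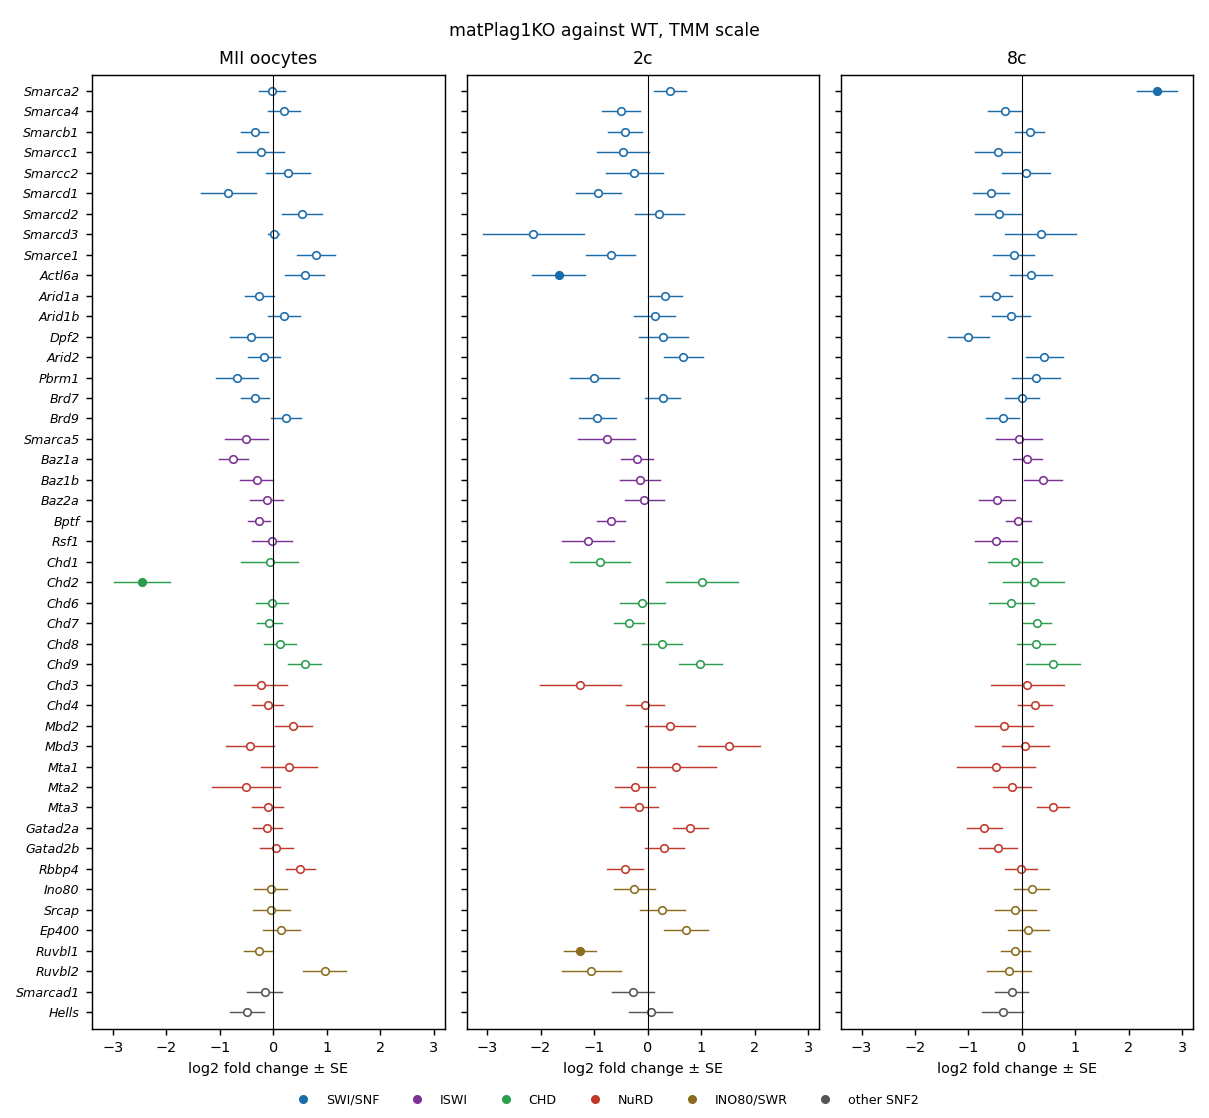
Log2 fold change (KO or matPlag1KO against WT, TMM scale) with its SE for each of the 46 members, in MII oocytes, 2c and 8c embryos. Filled points passed an adjusted p of 0.05, colours give the family, and 1, 2 and 1 points are filled in the 3 panels.

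Smarca2 encodes BRM, the paralog of SMARCA4 and an alternative ATPase of SWI/SNF. It lies at chr19:26679650-26852811. At 8c its level in WT embryos was 0 to 13.0 CPM with a median of 2.32, and in matPlag1KO embryos it was 0 to 50.4 CPM with a median of 22.4. The ranges overlapped, but 7 of 11 matPlag1KO embryos lay above all 15 WT embryos. The difference was 2.53 on the log2 scale (SE 0.38, adjusted p = 4.09e-06). It had the same direction in both pools, at 2.82 in libA (adjusted p = 0.00571) and 1.96 in libB (adjusted p = 0.15), so in libB alone it did not pass. The pools are not independent at 8c, where libraries with the same position code in the labels varied together (lowest correlation 0.104). All 6 matPlag1KO embryos of libA (11.4 to 50.4 CPM) were above all 7 WT embryos of that pool (2.26 to 5.54 CPM). The totals behind these levels were small, 20 counts over the WT embryos and 70 over the matPlag1KO embryos. Smarca2 also spans other annotated genes on the opposite strand, and whether the counting used strand was not given in the sources used here. In oocytes and at 2c Smarca2 did not pass, with medians of 285 and 258 CPM in WT and KO oocytes and 146 and 223 CPM in WT and matPlag1KO 2c embryos.

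Ruvbl1 encodes an AAA+ ATPase that forms a ring with its paralog RUVBL2 in the INO80, SRCAP and TIP60/p400 complexes, and lies at chr6:88415417-88447560. At 2c it was at 127 to 531 CPM in WT embryos (median 311) and at 59.9 to 223 CPM in embryos labelled matPlag1KO (median 114). The ranges overlapped, and 6 of 11 matPlag1KO embryos lay below all 11 WT embryos. The difference was -1.26 on the log2 scale (SE 0.30, adjusted p = 0.00673). On libB alone it was -1.56 (adjusted p = 0.0178) and in libA alone -0.94 (adjusted p = 0.585). In libA alone 0 of 15073 genes passed at 2c, so failure there says little about this gene. Libraries with the same position code also varied together at 2c (lowest correlation 0.0248, median 0.161). At 8c the levels were alike in range, 125 to 268 CPM in WT and 116 to 260 CPM in matPlag1KO embryos.

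Actl6a encodes BAF53A, an actin-related subunit of SWI/SNF that INO80 and TIP60 complexes also contain, and lies at chr3:32607468-32625893. At 2c it was at 13.7 to 75.1 CPM in WT embryos (median 42.4) and at 0 to 42.4 CPM in embryos labelled matPlag1KO (median 10.9). Every WT embryo and 7 of 11 matPlag1KO embryos held a count, and 7 of the 11 matPlag1KO embryos lay below all WT embryos. Such a separation also occurred at 2c for members that did not pass in edgeR. For Rsf1 and Chd1 7 matPlag1KO embryos lay below all WT embryos, for Pbrm1 and Bptf 6 did, and for Gatad2a 6 lay above. The difference was -1.66 on the log2 scale (SE 0.50, adjusted p = 0.0355). This call was lost when libraries were scaled to the spike-in (-1.45, adjusted p = 0.178) or by median ratios (-1.42, adjusted p = 0.0672), and in either pool alone, with the same sign in each. In libA alone 0 of all genes passed at 2c. In oocytes its median was 17.0 CPM in WT and 24.1 CPM in KO, and at 8c it was 58.1 and 64.9 CPM.

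Chd2 encodes a CHD family ATPase and lies at chr7:80571538-80686632. In oocytes it was at 0 to 48.1 CPM in WT (median 15.3) and at 0 to 13.6 CPM in KO (median 3.45). The WT values formed 2 ranges, 23.2 to 48.1 CPM in libA and 0 to 7.32 CPM in libB. The KO oocytes were at 0 to 13.6 CPM in libA and 0 to 8.53 CPM in libB, so only the WT oocytes of libA were high. The difference over all oocytes was -2.46 on the log2 scale (SE 0.52, adjusted p = 0.00242). Without the 8 WT oocytes of libA it was -0.27 (adjusted p = 0.942), and in libB alone -0.46 (adjusted p = 0.885). The gene 1810026B05Rik overlaps Chd2 on the same strand and had the same order of levels, with medians of 15.9 CPM in WT oocytes of libA, 0 in those of libB, and 0.954 and 0 in KO oocytes of libA and libB.

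**Figure D2:**
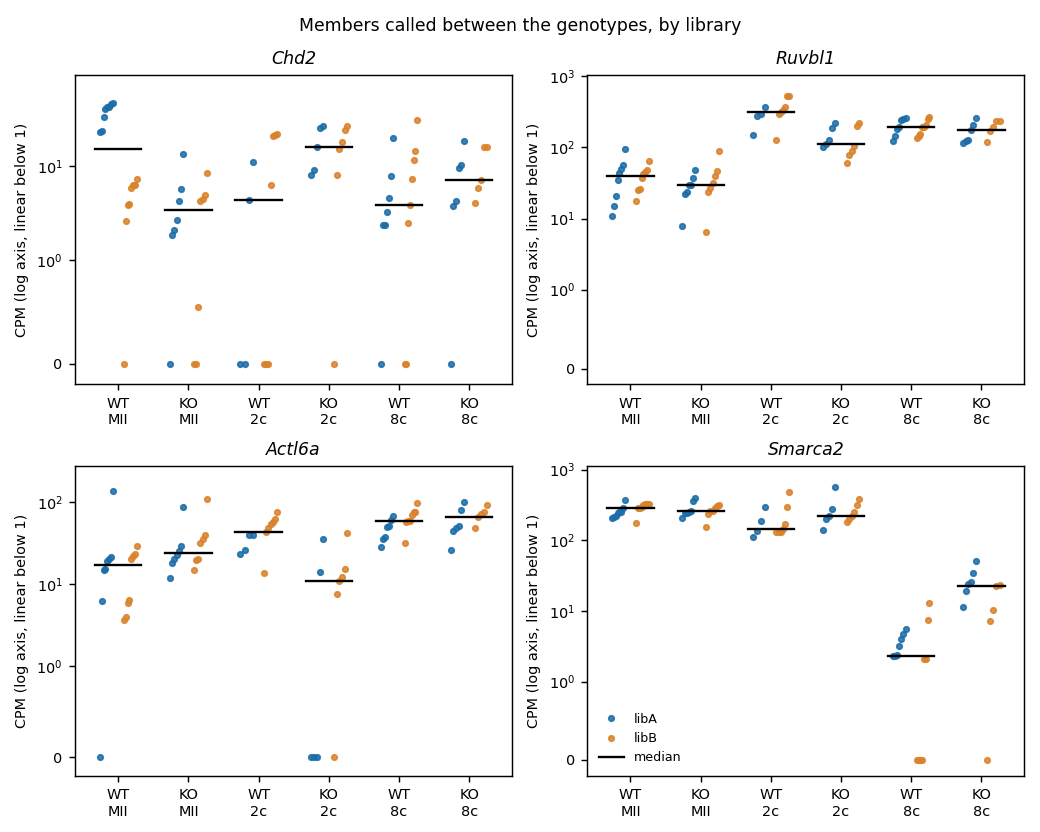
CPM (log axis, linear below 1) of the 4 members that differed between the genotypes, for each library, with the pools in colour and the group median as a line; points of a pool are ordered by value. High Chd2 values (23.2 to 48.1 CPM) occur in the WT oocytes of libA. Smarca2 is above 0 in 11 of 15 WT and 10 of 11 matPlag1KO 8c embryos, with medians of 2.32 and 22.4 CPM.

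Oocytes with the same position code in the labels (such as A1) also varied together between the genotypes, so the codes were tested as pairs. With the code as a block, and the pool as a further term, 3 members passed in oocytes, where 4.9% of all genes did. These were Chd2 (-1.89, adjusted p = 0.00114), Chd9 (0.77, adjusted p = 0.000553) and Ruvbl2 (1.29, adjusted p = 0.00072). Without the WT oocytes of libA, 1 member passed, against 5.6% of all genes. It was Ruvbl2, higher in KO oocytes by 2.61 (SE 0.53, adjusted p = 0.000337), but this sets WT oocytes of libB alone against KO oocytes of both pools. Within a pool it did not pass, at 1.55 in libB (adjusted p = 0.109) and 0.92 in libA (adjusted p = 0.444). Among KO oocytes Ruvbl2 was 1.66 higher in libA than in libB (adjusted p = 0.111). Ruvbl2 was at 0 to 101 CPM in WT oocytes (median 10.6) and at 2.12 to 86.8 CPM in KO oocytes (median 26.8), so that the KO range lay within the WT range. Over all oocytes its difference of 0.96 (SE 0.39) did not pass (adjusted p = 0.322).

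The genotype differences were then compared between stages. For 2c against MII, 2 of 46 members had a difference that changed, against 3.31% of all genes. For 8c against 2c, 1 of 46 did, against 2.3% of all genes. For Actl6a the genotype difference went from 0.58 in oocytes to -1.66 at 2c (change -2.25, SE 0.61, adjusted p = 0.0243). In WT itself the change of Actl6a to 2c did not pass and turned with the scaling, at -1.04 to the spike-in (adjusted p = 0.0797), 0.90 on the TMM scale (adjusted p = 0.0587) and, without the WT oocytes of libA, 0.42 to the spike-in (adjusted p = 0.525). For Chd2 the genotype difference went from -2.46 to 1.01 (change 3.47, SE 0.84, adjusted p = 0.0091). Without the WT oocytes of libA the change of Chd2 was 1.27 (adjusted p = 0.497), while Actl6a, Ruvbl2 and Brd9 passed, against 6.38% of all genes. For Smarca2 the genotype difference went from 0.41 at 2c to 2.53 at 8c (change 2.12, SE 0.47, adjusted p = 0.00683), and on the spike-in scale the change was 1.77 (adjusted p = 0.0955).

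The second comparison followed the members through the stages in WT embryos. Here levels were scaled to the spike-in RNA, because the total RNA of the embryo changes, and a level is also given as counts per 1000 spike-in counts. A fall in this bulk measure of a whole embryo cannot tell loss of a transcript in every blastomere from loss in some. From MII to 2c most members fell on the spike-in scale. Of 46 members 30 were lower, where 51.3% of all genes were, and 4 were higher, where 14.1% were. The median change of the members was -1.47 on the log2 scale and that of all genes -1.46. On the TMM scale, which removes this common shift, 10 of the 30 falls had the opposite sign, so the falls are those of counts per spike-in count. The balance of the calls also turned, with 15 members higher and 8 lower on the TMM scale, where the member median was 0.24 and that of all genes -0.03, and 16 higher and 7 lower with median ratios. Over all genes 27.5% were higher and 23.1% lower on the TMM scale, and 27.8% and 22.3% with median ratios. Without the WT oocytes of libA, 15 members were lower and 6 higher, against 32.6% and 16.7% of all genes, and the medians were -0.65 for the members and -0.54 for all genes. Of the 34 called members 19 remained called in the same direction. In matPlag1KO 29 members were lower and 3 higher, against 50.3% and 13.5% of all genes, and on the TMM scale 8 were lower and 16 higher (5 and 18 with median ratios). There 19.3% of all genes were lower and 29.1% higher (15.1% and 33.1% with median ratios). Of the members lower in WT, 25 were also lower in matPlag1KO, which is 83.3% of the WT list and 86.2% of the other.

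From 2c to 8c more members rose than fell on the spike-in scale. Of 46 members 17 were higher in WT, against 31.9% of all genes, and 4 were lower, against 16.2%. The member median was 0.62 and that of all genes 0.53. Both steps share the 2c libraries, and on the TMM scale all 21 of these calls had the same sign. Many other members passed there in the opposite direction, so that 7 members were higher and 16 lower on the TMM scale (6 and 18 with median ratios), with medians of -0.30 for the members and -0.12 for all genes. Over all genes 21% were higher and 28.9% lower on the TMM scale (20.3% and 29.7% with median ratios). In matPlag1KO 18 were higher, against 29.1% of all genes, and 5 lower, against 19.5%. On the TMM scale 11 were higher and 17 lower in matPlag1KO (9 and 18 with median ratios). There 21.2% of all genes were higher and 30.3% lower (19.5% and 32.7% with median ratios). Of the members higher in WT, 15 were also higher in matPlag1KO, which is 88.2% of the WT list and 83.3% of the other. By mean level per spike-in count, 28 of 46 members were highest in WT oocytes, 2 at 2c and 16 at 8c, where 54.5%, 10.6% and 34.9% of all genes were.

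**Figure D3:**
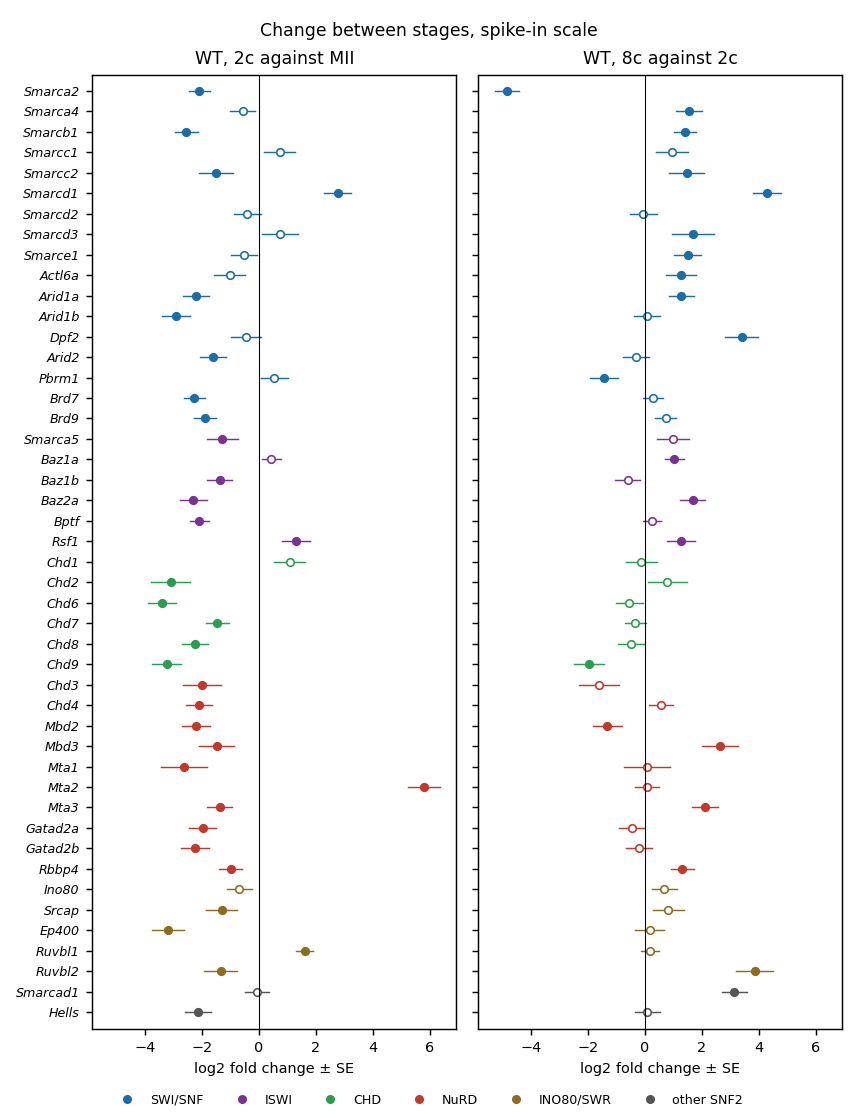
Log2 fold change between stages in WT (spike-in scale) with its SE for each of the 46 members, 2c against MII and 8c against 2c. Filled points passed an adjusted p of 0.05 and colours give the family; in the left panel 30 filled points lie below 0 and 4 above, and in the right panel 4 below and 17 above.

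Within SWI/SNF the ATPases moved apart. Smarca2 fell at both steps. In WT it was at 175 to 372 CPM in oocytes (median 285), at 112 to 488 CPM at 2c (median 146) and at 0 to 13.0 CPM at 8c (median 2.32). Its changes on the spike-in scale were -2.10 (SE 0.37, adjusted p = 7.14e-07) and -4.86 (SE 0.42, adjusted p = 1.7e-17), and per 1000 spike-in counts its median went from 12.5 to 3.1 and 0.0853. The ranges of oocytes and 2c overlapped in CPM, and those of 2c and 8c did not. Smarca4, at chr9:21420613-21508674, was at 16.7 to 129 CPM in WT oocytes (median 48.6), 28.3 to 276 CPM at 2c (median 149) and 40.5 to 409 CPM at 8c (median 253). Its change to 2c did not pass (-0.58, SE 0.44, adjusted p = 0.243; 0.77, adjusted p = 0.164, without the WT oocytes of libA), and its change to 8c was 1.54 (SE 0.46, adjusted p = 0.00378).

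Smarcd1, which encodes the core subunit BAF60A, was detected in 8 of 16 WT oocytes and in every embryo. Its level in WT was 0 to 18.9 CPM in oocytes, 21.2 to 86.3 CPM at 2c and 254 to 972 CPM at 8c, with no overlap between successive stages. Its changes were 2.77 (SE 0.47, adjusted p = 3.4e-07) and 4.29 (SE 0.48, adjusted p = 2.3e-12), the largest rise among the named members in the second step. Dpf2, a BAF subunit with zinc fingers that read histone marks, was at 9.11 to 144 CPM at 2c and 61.2 to 400 CPM at 8c in WT and rose by 3.39 (SE 0.57, adjusted p = 5.29e-07). Among the BAF-defining ARID subunits, Arid1b fell from a median of 180 CPM in WT oocytes to 87.4 CPM at 2c (-2.92, SE 0.50, adjusted p = 4.64e-07) and did not pass at the second step. Pbrm1, the polybromo subunit of PBAF, was highest in CPM at 2c (16.8 to 99.0 CPM, median 40.3) and then fell to a median of 8.38 CPM at 8c (-1.44, SE 0.49, adjusted p = 0.0116). In all, 8 of 17 SWI/SNF members fell and 1 rose to 2c, or 5 and 2 without the WT oocytes of libA, and 2 fell and 9 rose to 8c. Over all genes 51.3% fell and 14.1% rose to 2c, or 32.6% and 16.7% without those oocytes. To 8c 16.2% of all genes fell and 31.9% rose.

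In ISWI, the ATPase Smarca5, which encodes SNF2H, was low in WT throughout, with medians of 7.05 CPM in oocytes, 20.8 CPM at 2c and 21.5 CPM at 8c. It fell to 2c on the spike-in scale (-1.29, SE 0.56, adjusted p = 0.0366), with the opposite sign on the TMM scale (0.78) and without the WT oocytes of libA (0.78, adjusted p = 0.262), and did not pass to 8c (0.98, SE 0.56). Rsf1, a partner subunit of SNF2H, rose from a median of 2.29 CPM in WT oocytes to 31.2 CPM at 2c (1.29, SE 0.50, adjusted p = 0.0185) and rose again to 8c (1.26, SE 0.49, adjusted p = 0.0277). Of the 6 ISWI members 4 fell and 1 rose to 2c, or 2 and 2 without the WT oocytes of libA, and 3 rose to 8c. The shares over all genes were 51.3% and 14.1%, or 32.6% and 16.7% without those oocytes, and 31.9%.

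On the spike-in scale the CHD enzymes other than Chd1 fell to 2c, 5 of 6 members (3 of 6 without the WT oocytes of libA). None rose at either step on that scale. Over all genes 51.3% fell and 14.1% rose to 2c, and 31.9% rose to 8c. Without the WT oocytes of libA 32.6% of all genes fell to 2c. Chd6 was at 63.3 to 148 CPM in WT oocytes (median 87.0) and at 0 to 76.2 CPM at 2c (median 21.8), a change of -3.40 (SE 0.49, adjusted p = 6.89e-09). Chd9 fell at both steps, from a median of 78.6 CPM in WT oocytes to 27.7 CPM at 2c and 2.45 CPM at 8c (-3.25, SE 0.51, adjusted p = 5.07e-08, and -1.98, SE 0.52, adjusted p = 0.00102). The fall of Chd2 to 2c (-3.11, SE 0.69, adjusted p = 6.65e-05) was -0.17 (adjusted p = 0.899) without the WT oocytes of libA. Chd6 without them still fell (-2.98, SE 0.50) and so did Chd9 (-2.07, SE 0.49). Chd7 (-1.46, SE 0.39, but 0.30 on the TMM scale and -0.63, adjusted p = 0.17, without the WT oocytes of libA) and Chd8 (-2.26, SE 0.46) fell to 2c and did not pass to 8c. Chd1, which is known for its role at active genes and in open chromatin, had a median of 3.25 CPM in WT oocytes and 31.3 CPM at 2c, a difference that did not pass on the spike-in scale (1.07, SE 0.55, adjusted p = 0.0759).

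In NuRD, which joins a CHD ATPase to histone deacetylases, 9 of 10 members fell to 2c and 1 rose on the spike-in scale. Of all genes 51.3% fell and 14.1% rose. Only 4 of the 9 falls, those of Chd4, Mbd2, Gatad2a and Gatad2b, passed without the WT oocytes of libA, where 32.6% of all genes fell. On the TMM scale, and with median ratios, 0 NuRD members were lower and 1 was higher. The shares over all genes were 23.1% and 27.5% on the TMM scale and 22.3% and 27.8% with median ratios. The one that rose was Mta2, a scaffold subunit, which was detected in 3 of 16 WT oocytes but in all 11 WT 2c embryos. It was at 0 to 7.56 CPM in WT oocytes (median 0), 51.7 to 318 CPM at 2c (median 107) and 21.5 to 164 CPM at 8c (median 71.2). Oocytes and 2c did not overlap, and the change was 5.80 (SE 0.56, adjusted p = 1.69e-15) in WT and 5.94 (SE 0.60, adjusted p = 2.33e-14) in matPlag1KO. Among KO oocytes 3 of 14 held a count of Mta2. The main NuRD ATPase, Chd4, fell to 2c (-2.12, SE 0.45, adjusted p = 3.32e-05), with WT medians of 62.3, 56.3 and 42.2 CPM at the 3 stages, and Chd3 fell from a median of 7.20 CPM (-2.01, SE 0.66, adjusted p = 0.00614; -1.17, adjusted p = 0.171, without the WT oocytes of libA) and was detected in 5 of 15 WT 8c embryos. The methyl-CpG binding proteins moved in opposite directions to 8c. Mbd2 fell from a median of 17.3 CPM at 2c to 3.86 CPM (-1.33, SE 0.50, adjusted p = 0.0228), and Mbd3, which binds methylated DNA poorly, rose from 5.59 to 25.1 CPM (2.63, SE 0.63, adjusted p = 0.000333).

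In INO80/SWR, the largest fall to 2c was that of Ep400, whose product exchanges histone variants within TIP60/p400, with 131 to 1054 CPM in WT oocytes (median 315) and 16.9 to 436 CPM at 2c (median 132). The change was -3.20 (SE 0.58, adjusted p = 1.5e-06), and -1.69 (adjusted p = 0.00431) without the WT oocytes of libA. The ATPase Srcap, which deposits the histone variant H2A.Z, fell by 1.32 on the log2 scale (SE 0.55, adjusted p = 0.0298; 0.92 on the TMM scale, and 0.54, adjusted p = 0.413, without the WT oocytes of libA), and Ino80 did not pass (-0.69, SE 0.44, adjusted p = 0.157), and neither passed to 8c. Ruvbl1 rose to 2c in WT, where it was at 10.9 to 94.1 CPM in oocytes (median 39.7) and at 127 to 531 CPM at 2c with no overlap (1.60, SE 0.30, adjusted p = 3.62e-06). In matPlag1KO its change to 2c did not pass (0.41, SE 0.32, adjusted p = 0.248) and its change to 8c did (1.29, SE 0.34, adjusted p = 0.00094), but the test of the difference between genotypes across these stages did not pass in edgeR (adjusted p = 0.159 and 0.101), while DESeq2 called the second (1.15, adjusted p = 0.0316). Ruvbl2 fell to 2c in WT (-1.35, SE 0.59, adjusted p = 0.038), with the opposite sign on the TMM scale (0.69) and without the WT oocytes of libA (1.34, adjusted p = 0.0667). It rose later, from a median of 33.8 CPM at 2c to 197 CPM at 8c in WT (3.86, SE 0.65, adjusted p = 4.32e-07), with no overlap of 5.46 to 68.3 CPM and 126 to 516 CPM. Of the remaining enzymes, Smarcad1 rose to 8c from a median of 25.9 to 159 CPM (3.14, SE 0.45, adjusted p = 6.92e-09), and Hells, which encodes LSH, fell to 2c (-2.13, SE 0.46, adjusted p = 3.6e-05; -0.79, adjusted p = 0.149, without the WT oocytes of libA) and did not pass to 8c.

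On the TMM scale, which gives each gene relative to the other RNA of the embryo, several of these steps changed call. To 2c in WT, the falls of Smarca2 (-0.44, adjusted p = 0.171), Chd4 (-0.29, adjusted p = 0.477), Chd8 (-0.53, adjusted p = 0.183), Chd3 (-0.24, adjusted p = 0.767) and Hells (-0.40, adjusted p = 0.364) did not pass, and Smarca4 (1.29, adjusted p = 0.000386), Chd1 (2.44, adjusted p = 3.46e-05) and Ino80 (1.05, adjusted p = 0.00758) were higher. The falls of Arid1b, Chd6, Chd9 and Ep400 and the rises of Smarcd1, Rsf1, Mta2 and Ruvbl1 passed on both scales. To 8c, the rises of Smarca4 (0.63, adjusted p = 0.0982) and Rsf1 (0.37, adjusted p = 0.471) did not pass on the TMM scale, and those of Smarcd1, Dpf2, Mbd3, Ruvbl2 and Smarcad1 passed on both. By family, 7 SWI/SNF, 2 ISWI, 1 CHD, 1 NuRD and 3 INO80/SWR members were higher to 2c on the TMM scale in WT. In that order 3, 1, 3, 0 and 1 were lower. Of all genes 27.5% were higher and 23.1% lower. To 8c 2, 1, 0, 2 and 1 were higher and 4, 2, 4, 5 and 1 lower. Of all genes 21% were higher and 28.9% lower.

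The same steps were counted by family in matPlag1KO on the spike-in scale. To 2c 10 SWI/SNF members fell and 1 rose, 3 ISWI members fell and 1 rose, 4 CHD, 8 NuRD and 3 INO80/SWR members and 1 further enzyme fell, and 1 NuRD member, Mta2, rose. Of all genes 50.3% fell and 13.5% rose. To 8c 9 SWI/SNF, 4 ISWI, 2 NuRD and 2 INO80/SWR members and 1 further enzyme rose, and 1 SWI/SNF, 1 CHD and 3 NuRD members fell. Of all genes 29.1% rose and 19.5% fell. On the TMM scale 5 SWI/SNF, 2 ISWI, 2 CHD, 3 NuRD and 3 INO80/SWR members were higher to 2c. In that order 4, 1, 2, 0 and 1 were lower. Over all genes 29.1% were higher and 19.3% lower. To 8c 7, 0, 0, 2 and 1 were higher and 6, 1, 4, 4 and 1 lower on the TMM scale. There 21.2% of all genes were higher and 30.3% lower. Smarca2 was at 153 to 394 CPM in KO oocytes, 141 to 566 CPM at 2c and 0 to 50.4 CPM at 8c, with changes of -1.86 (SE 0.37, adjusted p = 9.6e-06) and -3.10 (SE 0.41, adjusted p = 9.24e-10). Its fall to 8c passed in both genotypes. Actl6a, at 11.7 to 110 CPM in KO oocytes, 0 to 42.4 CPM at 2c and 25.8 to 101 CPM at 8c, fell by 3.20 on the log2 scale (SE 0.61, adjusted p = 4.25e-06) and then rose by 2.95 (SE 0.62, adjusted p = 4.22e-05). Ruvbl2 fell to 2c (-3.16, SE 0.65, adjusted p = 1.78e-05) and rose to 8c (4.57, SE 0.69, adjusted p = 3.84e-08), where its level of 104 to 583 CPM did not overlap the 0 to 48.7 CPM at 2c. Each of these steps in matPlag1KO and WT uses separate libraries, and the differences between the genotypes are those tested above.

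The third comparison used the share of a paralog or partner in the summed counts of a pair, which does not depend on the scaling of a library. Over 13 pairs and 7 comparisons, 88 tests could be made on libraries with at least 10 counts over the pair, and 31 had an adjusted p under 0.05 in a two-sided permutation test over libraries (exact where a group had fewer than 10 libraries). Of these 30 were between stages and 1 between genotypes. The changes of the members named above enter these shares, so the shares are not independent evidence for them. Without the WT oocytes of libA 31 of 84 tests had an adjusted p under 0.05.

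Smarca4 made up 17.8% ± 9.3 (SD, n = 16) of the Smarca4 and Smarca2 counts in WT oocytes, 43.4% ± 20.6 (n = 11) at 2c and 98.1% ± 2.7 (n = 15) at 8c. The adjusted permutation p was 0.00167 for the first step and 0.00022, the smallest that the resamples could give, for the second, where the stages did not overlap. In matPlag1KO the share had a mean of 20.1% in 14 oocytes (range 4.35% to 54.7%), and was 29.8% ± 11.3 (n = 11) at 2c and 87.0% ± 12.1 (n = 11) at 8c. At 8c the share ranged from 89.5% to 100% in WT and from 65.5% to 100% in matPlag1KO embryos, a difference of -11.1 percentage points (adjusted permutation p = 0.00229). Within pools the difference was -15.3 points in libA (exact adjusted p = 0.0671) and -5.82 points in libB (exact adjusted p = 0.0958). The ranges overlapped, and the lowest shares were those of matPlag1KO embryos of libA.

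Smarcd1 likewise took over from Smarcd2, with 10.9% ± 13.0 (n = 7) in WT oocytes, 61.8% ± 17.0 (n = 10) at 2c and 96.3% ± 1.9 (n = 15) at 8c (adjusted p = 0.00101, exact, and 0.00022, permutation). Among the NuRD scaffolds, Mta1 made up 98.3% to 100% of the Mta1 and Mta2 counts in 5 WT oocytes and 0% to 36.0% in 10 WT 2c embryos (exact adjusted p = 0.00279). Too few oocytes of libB reached 10 counts to test these shares of Smarcd1 and Mta1 without the WT oocytes of libA. Mta2 in turn made up 1.68% ± 4.3 (n = 15) of the Mta2 and Mta3 counts in WT oocytes, 66.4% ± 13.4 (n = 11) at 2c and 28.8% ± 10.0 (n = 15) at 8c, so that Mta2 prevailed at 2c and Mta3 before and after it. Mbd3 took a mean share of 16.0% with Mbd2 in 13 WT oocytes (range 0% to 41.2%) and 86.2% ± 8.7 (n = 10) at 8c, and too few WT 2c embryos reached 10 counts for a test.

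In ISWI, Baz1a, which encodes ACF1, made up 47.0% ± 16.9 (n = 16) of the Baz1a and Baz1b counts in WT oocytes, 75.3% ± 9.1 (n = 11) at 2c and 91.9% ± 7.3 (n = 15) at 8c. Ruvbl1 made up 90.7% ± 6.8 (n = 11) of the Ruvbl1 and Ruvbl2 counts at 2c and 46.1% ± 7.9 (n = 15) at 8c in WT, with no overlap (adjusted permutation p = 0.00022). In oocytes this share ranged from 22.1% to 100% in WT and from 19.4% to 95.0% in KO, a difference of -22.7 percentage points that did not pass (adjusted permutation p = 0.0708). With WT oocytes of libB alone against all KO oocytes the difference was -35.4 points (exact adjusted p = 0.0136), and that of the Brd9 share with Brd7 was 16.6 points (exact adjusted p = 0.00973). Chd4 was at a mean of 87.2% or more of the Chd4 and Chd3 counts in all 6 groups, and no comparison of that pair passed.

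**Figure D4:**
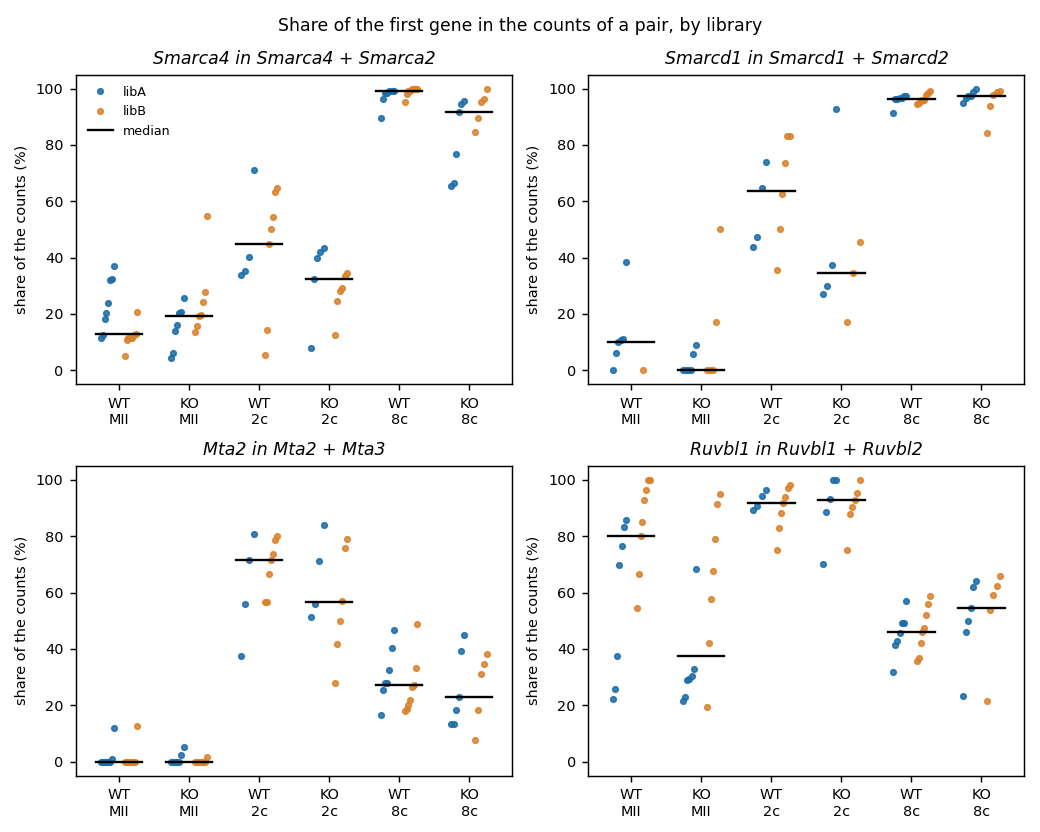
Share (%) of the first gene in the summed counts of 4 pairs for each library with at least 10 counts over the pair, with the pools in colour and the group median as a line; points of a pool are ordered by value. The Smarca4 and Smarcd1 shares rise to means of 98.1% and 96.3% in WT 8c embryos, the Mta2 share is highest at 2c, and the Ruvbl1 share falls from 2c to 8c.

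A list of 59 further remodeller subunits, of which 58 passed the filter, was examined in the same fits. Between genotypes 0 differed in oocytes, where 4 had an unadjusted p under 0.05 in edgeR (6.9%, against 10.2% of all genes), and DESeq2 also called 0, with 7 at an unadjusted p under 0.05 (12.1%, against 6.19% of all genes). At 2c 1 was higher (1.72%, against 2.3% of all genes) and 2 were lower (3.45%, against 2.62%) in embryos labelled matPlag1KO. At 8c 1 was lower (1.72%, against 0.527%) and 0 were higher (against 1.21%). DESeq2 called 4 at 2c, where it called 397 of 16511 genes higher and 619 lower. At 8c it called 2, where 217 genes were higher and 120 lower. Chrac1, a histone-fold subunit of the CHRAC complex of ISWI, was lower at 2c (-2.28, SE 0.58, adjusted p = 0.0113), and so was Uchl5, an INO80-associated deubiquitinase (-2.96, SE 0.82, adjusted p = 0.0411), at means of 5.19 CPM in WT and 0.295 CPM in those labelled matPlag1KO. Vps72, which binds H2A.Z within SRCAP, was higher (1.12, SE 0.31, adjusted p = 0.0227). Morf4l1, a TIP60 complex subunit, was lower at 8c (-1.11, SE 0.28, adjusted p = 0.023). From MII to 2c in WT 37 of 58 fell (63.8%, against 51.3% of all genes) and 4 rose (6.9%, against 14.1%) on the spike-in scale. On the TMM scale 22 fell (37.9%, against 23.1%) and 15 rose (25.9%, against 27.5%). Without the WT oocytes of libA 29 fell (50%, against 32.6%) and 8 rose (13.8%, against 16.7%) on the spike-in scale. From 2c to 8c 2 fell (3.45%, against 16.2%) and 27 rose (46.6%, against 31.9%). On the TMM scale 10 fell (17.2%, against 28.9%) and 16 rose (27.6%, against 21%). The largest falls to 2c were those of Actr8 (-5.38, SE 0.62), Dmap1 (-4.77, SE 0.82) and Ino80e (-4.74, SE 0.68), and the largest rises those of the NuRD subunits Cdk2ap1 (3.24, SE 0.50) and Hdac1 (2.86, SE 0.51) and of Yy1 (2.62, SE 0.59). To 8c the largest rises were those of Dmap1 (5.08, SE 0.82), Znhit1 (4.76, SE 0.73) and Zfp219 (3.88, SE 0.68), and Bcl7c, a SWI/SNF subunit, fell (-5.75, SE 0.72).

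Reads of 11 members could be shared with another annotated gene. These 11 overlap at least 1 other gene in the table, and 6 overlap a gene on the opposite strand, among them Smarca2, Pbrm1 and Rsf1. The part of the overlapping genes in these values was not tested.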

How the data were processed

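RNA of single oocytes and embryos was measured in 90 libraries. The lysis buffer held an anchored oligo(dT) primer, so the counts are of RNA with a poly(A) tract. The deposited table holds whole-number counts per gene, which the authors made from 5'-end reads with unique molecular identifiers, aligned to mm9 with TopHat and counted with HOMER (per the labels and the methods of the study; versions and strand setting are not given in the sources used here). The table also holds 92 spike-in RNA rows, which were kept out of gene totals and tests.

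A gene counted as expressed where 5 libraries or more reached 1 CPM. The 78 libraries whose median over expressed genes was 1 CPM or higher were kept, and the 16511 genes expressed among them were tested. All 6 groups entered a single fit in edgeR 4.0.16 (quasi-likelihood test, R 4.3.3), scaled by TMM between genotypes and by spike-in totals between stages, and an adjusted p (Benjamini-Hochberg over all genes tested) under 0.05 was a call. CPM are per TMM-scaled library. Pair shares were tested with scipy 1.17.1 (100000 resamples or exact, two-sided, adjusted over the 88 tests). Alternatives were DESeq2 1.42.0, other scalings, filters, pools (libA or libB alone, or as a term) and thresholds; leaving out the WT oocytes of libA was chosen after seeing the data. Scripts were tested on simulated data.

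In oocytes the 14 position codes held in common by the genotypes deviated together (lowest correlation of deviations from the group and pool means 0.148), so the code was used as a block there; the pairing comes from the code in the labels. No 2 libraries of a group agreed within sampling noise (lowest chi-square per degree of freedom 3.54). Members were compared within mm9. The sequence windows were set on the gene starts given in the count table. In a separate mm9 annotation 46 of 46 members overlap the same place, and 21 have the same 5' base. The windows of the others would differ with that annotation.

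The genes named are those called between genotypes or in their change between stages, the 5 largest rises and falls of each WT step among calls with a group mean of at least 10 CPM, and the ATPases; Baz1a, Brd9 and Ruvbl2 in oocytes were added after their values were seen. The members and lists were chosen with earlier results of these data known.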

Additional observations from a re-analysis of the deposited data

Results flagged for a closer look

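The genotype difference of 3 members changed between stages (edgeR). For Actl6a it changed by -2.25 from oocytes to 2c (adjusted p = 0.0243). The change did not pass on the spike-in scale (-2.16, adjusted p = 0.126) or in libA alone (-1.52, adjusted p = 0.575), and passed in libB alone (-3.08, adjusted p = 0.0067). For Chd2 it changed by 3.47 over the same step (adjusted p = 0.0091), and by 1.27 (adjusted p = 0.497) without the WT oocytes of libA. For Smarca2 it changed by 2.12 from 2c to 8c (adjusted p = 0.00683). That change kept its sign but did not pass in libA alone (2.25, adjusted p = 0.381), libB alone (1.71, adjusted p = 0.23) or the spike-in scale (1.77, adjusted p = 0.0955). In libA alone 0 of 15073 genes passed for the change from 2c to 8c. What lies behind these changes was not tested.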

How the results depend on the processing

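Most counts of called members kept within 1.5 times under the alternatives. The differences of Chd2, Ruvbl1, Actl6a and Smarca2 between genotypes kept their sign under every alternative run, while changes between stages turned for members such as Srcap, Smarca5 and Ruvbl2 on the TMM scale and without the WT oocytes of libA. In oocytes the count of 1 became 0 in libB alone and 3 with the position code as a replicate block. Only 2 codes at 2c and 0 at 8c were shared between the genotypes, so no block was fitted there. For the 8 codes found in both pools at 2c the correlation of deviations was at least 0.0248, with a median of 0.161. The 2c tests also treat these libraries as independent. At 8c the 12 codes found in both pools held the same genotype in each. Their libraries also varied together (correlation of deviations at least 0.104, median 0.215). The 8c tests treat these libraries as independent, and genotype cannot be told apart from code there. At 2c the count of 2 became 0 in libA alone, 1 in libB alone, with spike-in scaling, with median-ratio scaling and at an adjusted p under 0.01, and 4 in DESeq2, which added Bptf and Smarcd1. In libA alone 0 of 15073 genes passed at 2c. At 8c the count of 1 became 0 in libB alone. From MII to 2c in WT the count of 34 became 20 in libB alone and 21 without the WT oocytes of libA. From 2c to 8c the WT count of 21 became 9 in libA alone and 13 at an adjusted p under 0.01, and the matPlag1KO count of 23 became 12 in libA alone. For the change of the genotype difference from MII to 2c the count of 2 became 1 in libA alone, with spike-in scaling and at an adjusted p under 0.01. For that from 2c to 8c the count of 1 became 0 in libA alone, libB alone and with spike-in scaling, 2 with all libraries kept and with median-ratio scaling, and 4 in DESeq2, which added Ruvbl1, Actl6a and Gatad2a. For that change, too, 0 of 15073 genes passed in libA alone. Pair shares with an adjusted p under 0.05 went from 31 to 20 with at least 30 counts over the pair, 14 in libA alone and 19 in libB alone (permutation tests, fewer libraries and fewer tests). Over their alternatives the log2 differences ranged from -3.06 to -0.27 for Chd2, -1.56 to -0.94 for Ruvbl1, -1.75 to -1.42 for Actl6a and 1.96 to 2.82 for Smarca2. Where not shown above, the cause was not tested. At 2c, with 92475 to 256529 counts per library, a gene at 1 CPM is expected at less than 1 count.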
